A study of Mus musculus with 2 samples.

Results

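The genes described here encode the respiratory complexes II to V of the mitochondrial inner membrane, together with their assembly proteins. They were taken from the array by gene name: every non-control probe whose name starts with Sdha, Sdhb, Sdhc, Sdhd, Uqcr, Atp5, or Cox with a digit, or equals Cyc1 or Cycs. This gave 96 of 39429 gene probes and 59 of 30165 genes. Of the 59 genes, 46 encode subunits (4 of complex II, 9 of complex III, cytochrome c, 17 of complex IV and 15 of complex V), and 13 encode assembly factors or other proteins with a name of the same form. The name rule itself uses no measured value, although it was set with earlier results of these data known.

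Complex II (succinate dehydrogenase) passes electrons from the citric acid cycle to ubiquinone. Complex III hands them to cytochrome c, and complex IV (cytochrome c oxidase) passes them on to oxygen. Complexes III and IV pump protons across the inner membrane, and complex V, the ATP synthase, lets the protons flow back to make ATP. Complex II is encoded in the nucleus alone, whereas complexes III, IV and V also hold subunits encoded by mitochondrial DNA. Drp1, the product of Dnm1l, is the GTPase that divides mitochondria.

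The study compared the liver of 1 wild type mouse sample with that of 1 Drp1 knockout sample by 1-colour Agilent expression arrays (Cy3-labelled cRNA). Both were male C57BL/6J mice that received a high-fat diet (24% fat, 45% of energy) from 4 weeks of age for 24 weeks, so both groups carried the obesogenic diet and no chow-fed sample was analysed here. The series title places the disruption in the liver, and the labels do not name the allele or the Cre driver. The labels also leave unstated whether these samples were taken after the 17-hour fast or the 4-hour refeeding that the design text describes. With 1 array per group no difference between wild type and knockout has a replicate check, and the values compare these arrays and not the genotypes in general.

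Values are fluorescence intensities divided by the 75th percentile of the same array, called levels here, and a difference is log2 of the knockout level minus log2 of the wild type level. A gene is the mean over its probes that were well above background on both arrays. Spots of the same probe gave a difference an SD of 0.14, pooled over 241 probes, which describes measuring error on the arrays and not variation between mice. Counts use a difference of at least 1.5-fold. Across 15385 measured genes the median difference was -0.11, with 9246 genes (60.1%) below 0. The scanner marked 50.5% of gene probes in the wild type and 57.1% in the knockout as well above background. Dnm1l was at 2.03 in the wild type and 1.75 in the knockout (difference -0.21), from a probe that cannot be tied to the deleted part and so does not check the labels. Fgf21, the hormone named in the study's title, was at 3.37 in the wild type and 20.2 in the knockout.

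Of the 59 genes, 56 were measured on both arrays, through 88 probes. Another 7 probes were not well above background on either array, and 1 of the Cycs probes passed on the knockout array alone. Cox17, which carries copper to complex IV, and the testis-type subunits Cox7b2 and Cox8c had no probe above background on either array. For 23 genes several probes were measured, and in all 23 they gave differences of the same sign. Some of these probes overlap, such as those of Uqcrb at positions 309, 335 and 346, so their agreement is partly built in. The median spread between probes of a gene was 0.078 among these 23 genes, against 0.27 over 3357 genes with several probes. These sets of genes were not matched on brightness or on probe overlap. The array files place 5 probes on a chromosome other than their gene's (for Atp5j2, Atp5l, Cox5b, Uqcr11 and Uqcrh), and signal from the gene and from a near-identical copy cannot be told apart for these. The Uqcr11 probe of this kind differed by -0.71 and the probe on the gene itself by -0.73, and the Cox5b pair differed by -0.58 each. A further 2 probes, both of Atp5k, lie on a contig not placed on any chromosome. They differed by -0.81 and -0.78, and the Atp5k probe on the gene's own chromosome by -0.82.

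The 44 measured subunit genes had a median difference of -0.49, or 1.40-fold lower in the knockout, and 42 of them lay below 0. This direction held with 8 alternative ways of processing and reversed with scaling to the E1A spike-in spots, where the median was 0.29 and 5 of 44 subunits stayed below 0. Of the 44, 15 were at least 1.5-fold lower and 0 at least 1.5-fold higher. Over all measured genes 13.4% were at least 1.5-fold lower and 8.42% at least 1.5-fold higher in the knockout. Several values lay close to the limit. Cox4i1, Cox6a1, Cox8a and Atp5h lay just inside it at 1.51-fold lower, and Cox5b lay just outside it at 1.49-fold lower. With quantile normalization, loess normalization or the deposited values 4 subunits were lower by that size, namely Atp5j, Cox6a2, Cox7a1 and Cox8b, and the median was -0.18, -0.18 and -0.19. The columns of the deposited value table hold nearly the same sorted values, as quantile normalization gives, so that table is not a separate check from it.

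**Figure D1:**
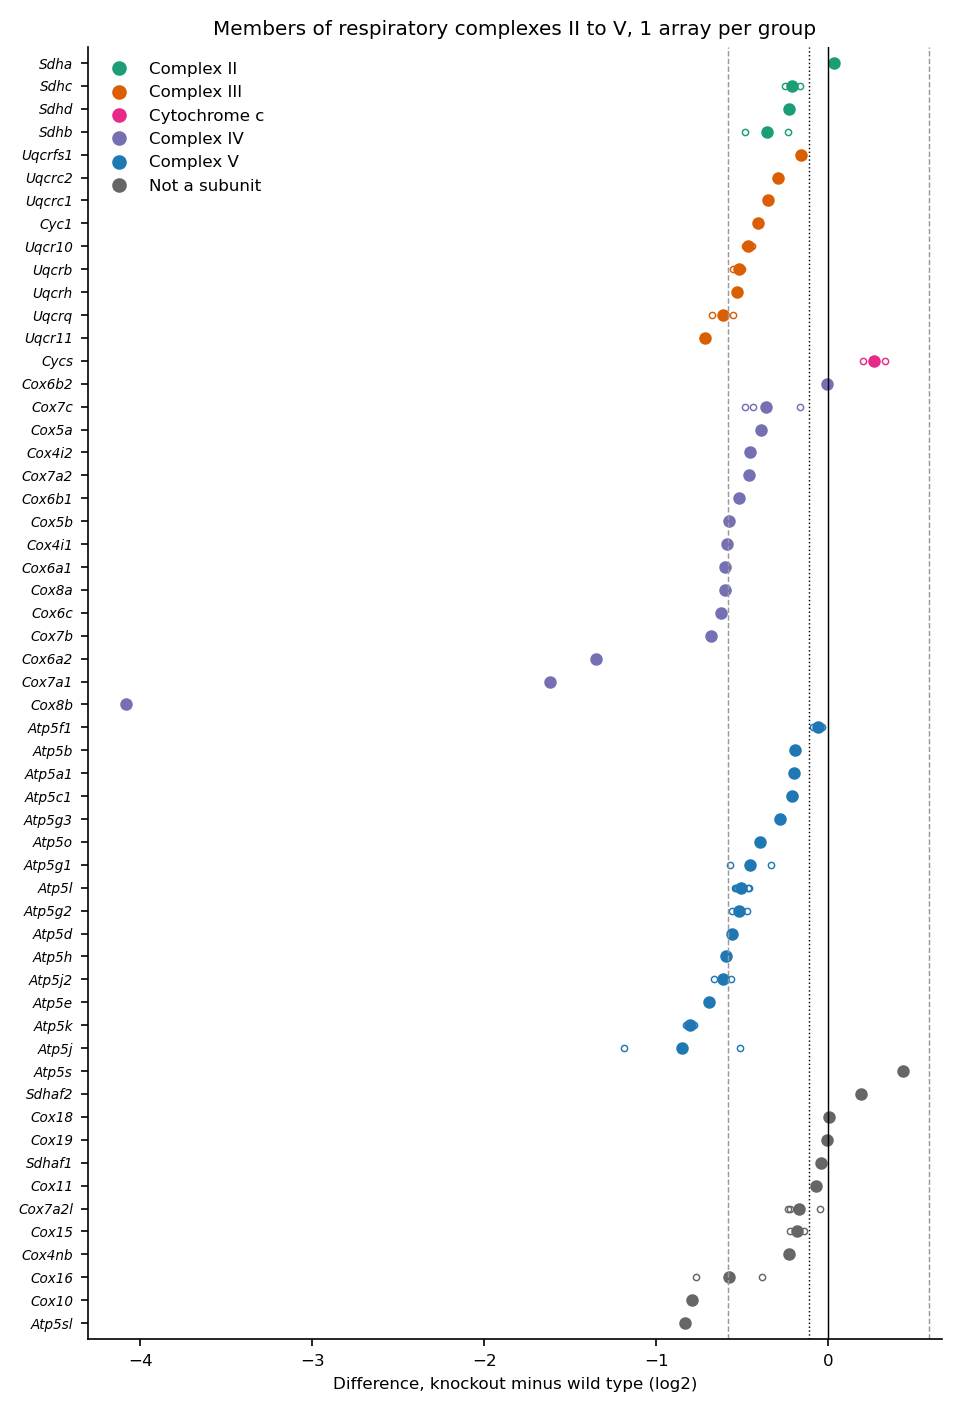
Difference between the knockout and the wild type array (horizontal axis, log2) for each measured gene, coloured by complex, with 1 array per group. Filled points are genes and open points their single probes where a gene had several; the dotted line is the median of all genes (-0.11) and the dashed lines mark 1.5-fold. Complex III lies between -0.72 and -0.16 and complex V between -0.85 and -0.061, Cycs and Sdha lie above 0, and Cox8b stands far below the rest; with spike-in scaling every point moves 0.78 to the right, which puts most of them above 0.

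Promoters are shown for 5 genes that stand for different results. Cycs had the greatest positive difference among subunit genes, Atp5k was among the lowest of complex V, Cox6a1, near the middle of complex IV, is the liver-type partner of a muscle-type gene, and Cox7a1 and Cox8b are muscle-type genes. Nuclear respiratory factor 1 (NRF1) and the ETS factor GABP are textbook activators of nuclear genes for respiratory subunits. The sequences are the 250 bases upstream of the annotated start in RefSeq (GRCm38.p6), 5′ to 3′ on the gene's strand, and capitals mark the NRF1 core GCGCATGC and the GABP core CCGGAAG on either strand.
Cycs promoter, chr6:50566570-50566819, minus strand: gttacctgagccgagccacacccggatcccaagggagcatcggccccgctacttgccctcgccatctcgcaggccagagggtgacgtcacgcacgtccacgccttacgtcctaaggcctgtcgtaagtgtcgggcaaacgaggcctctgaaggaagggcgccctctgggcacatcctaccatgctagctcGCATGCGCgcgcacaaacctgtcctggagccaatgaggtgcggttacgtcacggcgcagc
Atp5k promoter, chr5:108434400-108434649, minus strand: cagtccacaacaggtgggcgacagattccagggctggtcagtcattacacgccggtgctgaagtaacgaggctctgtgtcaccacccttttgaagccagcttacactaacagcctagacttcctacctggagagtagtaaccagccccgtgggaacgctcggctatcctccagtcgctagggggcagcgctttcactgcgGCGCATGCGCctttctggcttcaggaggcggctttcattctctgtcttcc
Cox6a1 promoter, chr5:115348959-115349208, minus strand: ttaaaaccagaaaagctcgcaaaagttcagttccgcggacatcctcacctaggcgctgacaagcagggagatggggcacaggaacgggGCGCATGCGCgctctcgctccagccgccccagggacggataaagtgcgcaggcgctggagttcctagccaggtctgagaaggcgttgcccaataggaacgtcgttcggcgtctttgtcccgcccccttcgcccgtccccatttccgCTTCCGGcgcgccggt
Cox7a1 promoter, chr7:30183921-30184170, plus strand: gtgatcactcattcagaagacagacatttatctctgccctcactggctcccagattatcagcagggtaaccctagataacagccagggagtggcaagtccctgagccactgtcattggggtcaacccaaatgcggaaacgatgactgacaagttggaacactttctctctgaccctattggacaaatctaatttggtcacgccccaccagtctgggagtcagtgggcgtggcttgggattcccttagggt
Cox8b promoter, chr7:140900447-140900696, minus strand: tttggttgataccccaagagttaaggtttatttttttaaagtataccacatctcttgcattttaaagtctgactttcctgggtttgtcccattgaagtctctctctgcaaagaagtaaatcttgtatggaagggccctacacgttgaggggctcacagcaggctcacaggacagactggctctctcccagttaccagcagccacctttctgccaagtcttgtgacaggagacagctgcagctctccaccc

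A promoter window was found for 45 of the 59 genes (50 windows). The NRF1 core was present in 12% of these windows, against 2.26% of 32851 windows of the same length from 27025 genes. It occurred upstream of Atp5g2, Atp5k, Atp5l, Cox6a1, Cycs and Sdhb, and these genes covered the range of differences from Cycs (0.27) to Atp5k (-0.81). The core reads almost as a palindrome, so the run GCGCATGCGC in Atp5k and Cox6a1 counts as 2 overlapping matches (first bases at -50 and -48 in Atp5k, and at -162 and -160 in Cox6a1). In Cycs a single match began at -60. The GABP core was present in 26% of the windows, against 6.91% of all windows, and among subunit genes it occurred in Atp5e, Atp5h, Atp5j, Atp5l, Cox6a1, Cox6b1, Sdhd, Uqcr11 and Uqcrh. The windows of Cox7a1 and Cox8b held neither core and had 4 and 1 CpG dinucleotides, where the median was 15 over the 50 windows and 6 over all windows. The muscle E-box CAGCTG, on both strands, was found in Cox8b and not in Cox7a1. It was in 4% of the members' windows, the other being that of Atp5b, and in 13% of all windows. The YY1 core AAGATGG and the oestrogen-related receptor core AAGGTCA were each in 4% of the members' windows, against 4.49% and 4.08% of all windows. A match describes the letters and not binding, and the windows compared were not matched on CpG content.

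Complex IV has subunits with separate genes for liver-type and muscle-type forms, and the muscle-type genes carry the greatest differences of the set. The first 30 of the 60 bases of each probe are given with the position that the array files give the whole probe in mm9. The Cox7a1 probe covers 612 genomic bases, which is longer than the probe itself. Exon and UTR annotation of that build was not used here.
Cox6a1 probe, chr5:115795726-115795785, minus strand: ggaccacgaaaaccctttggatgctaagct
Cox6a2 probe, chr7:135349160-135349219, minus strand: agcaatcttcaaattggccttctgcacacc
Cox7a2 probe, chr9:79603215-79603274, minus strand: ctttggggatcaatatttattgatgtgtat
Cox7a1 probe, chr7:30970337-30970948, plus strand: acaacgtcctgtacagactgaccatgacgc
Cox8a probe, chr19:7289722-7289781, minus strand: ttattcaattccagtcacctcttctgcaat
Cox8b probe, chr7:148084852-148084911, minus strand: ctataaaaagagctccgcagcatgaagttg
Laid over each other without gaps, the 60-base probes of a liver-type and a muscle-type partner matched at 19 letters for Cox6a1 and Cox6a2, 17 for Cox7a2 and Cox7a1, and 20 for Cox8a and Cox8b. Their longest shared runs were 4, 6 and 5 letters. Each probe was compared with the partner's probe and not with the partner's transcript. Whether a probe also reads its partner was therefore not tested. All 3 muscle-type genes lie on chromosome 7 but at separate places.

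The subunit genes give bright spots, and bright spots were lower in the knockout as a whole. So was the dimmest of 10 groups of genes by mean signal. That dimmest group held 0 subunits and had a median of -0.25, with 25% of its genes at least 1.5-fold lower. Of the 44 subunits, 34 fell in the brightest of 10 groups of genes by mean signal. In that group the median difference over all 1539 genes was -0.30, with 17.4% of genes at least 1.5-fold lower and 1.49% higher, and the median of the 34 subunits was -0.49. All 17 hepatocyte markers on the array were above background in both samples, and they had a median of -0.57, with 7 at least 1.5-fold lower and 2 higher, and their summed level was 5183 in the wild type and 3608 in the knockout. Quantile normalization, which sets the brightness distributions of both arrays equal, moved the hepatocyte markers to 0.0084 and the subunits to -0.18. With loess the hepatocyte markers were at -0.13 and the subunits at -0.18, so the gap between them depended on the method. The part of brightness in the subunits' difference was not tested beyond these values. In RNA from whole tissue, fewer cells of a type and less RNA per cell cannot be told apart.

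**Figure D2:**
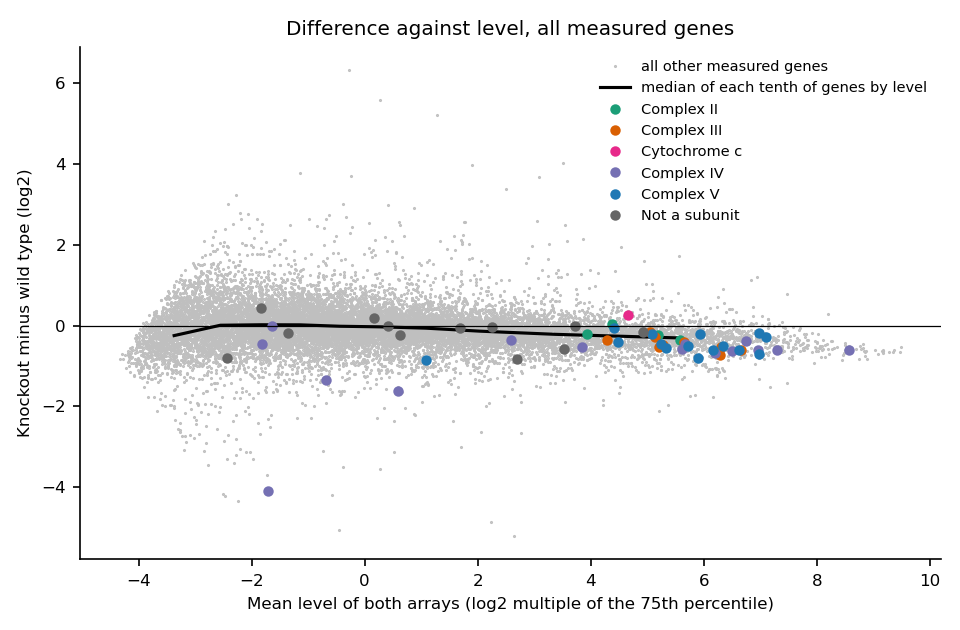
Difference (vertical axis, log2 knockout minus wild type) against the mean level of both arrays (horizontal axis, log2) for every measured gene, with the members coloured by complex and the black line joining the medians of 10 groups of genes by level. The line lies at -0.25 at the dim end and falls to -0.30 at the bright end, where the 34 subunits have a median of -0.49. With spike-in scaling all points move up by 0.78.

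Complex II had the median nearest 0 of the complexes under the reported scaling, -0.22 over its 4 subunits with none at 1.5-fold, and its direction reversed with quantile normalization (0.037), loess (0.041), the deposited value table (0.045) and spike-in scaling (0.56). Sdha, the flavoprotein that oxidises succinate, was at 20.4 in the wild type and 20.9 in the knockout, a difference of 0.035 that is smaller than the spot SD. Sdhb, the iron-sulphur subunit, was at 54.1 in the wild type and 42.2 in the knockout, and its probes differed by -0.23 and -0.48. The membrane anchors Sdhc and Sdhd, which hold the ubiquinone site, differed by -0.21 and -0.23. Sdhd was at 39.4 in the wild type and 33.6 in the knockout. Of the assembly factors of complex II, Sdhaf1, which helps to insert iron-sulphur clusters, was close to 0 (-0.042). Sdhaf2, which helps to attach FAD to Sdha, differed by 0.19, which is larger than the spot SD.

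All 9 subunits of complex III were lower on the knockout array, with a median of -0.47 and a range from -0.72 to -0.16, and all 9 were above 0 with spike-in scaling. Uqcrfs1, the Rieske iron-sulphur protein, was at 35.1 in the wild type and 31.4 in the knockout (-0.16). Cyc1, cytochrome c1, was at 58.0 in the wild type and 43.7 in the knockout (-0.41). The core proteins Uqcrc1 and Uqcrc2 differed by -0.35 and -0.29.

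Uqcrc2 was spotted 10 times on each array and so shows the measuring error directly. Its level lay between 36.5 and 40.4 over the 10 wild type spots and between 29.9 and 33.0 over the 10 knockout spots. These ranges do not overlap, with a mean log2 of 5.28 ± 0.039 in the wild type and 4.99 ± 0.044 in the knockout (SD over 10 spots of 1 sample each). The difference of -0.29 is therefore larger than the spread between spots, although its size and sign follow the scaling of the arrays: the deposited value table put it at 0.011.

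Among the small subunits of complex III, Uqcr11 had the greatest difference, with 101 in the wild type and 61.2 in the knockout, or 1.65-fold lower. Uqcrq, a small subunit known as a ubiquinone-binding protein, was at 125 in the wild type and 81.5 in the knockout, or 1.53-fold lower. Uqcrb and Uqcrh differed by -0.52 and -0.53. Uqcr10 was read by 3 probes that lie at both ends of its transcript and differed by -0.45 at position 36, by -0.47 at position 373 and by -0.48 at position 380. The values at both ends of this transcript differ by less than the spot SD.

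Cycs, the mobile electron carrier between complexes III and IV, went the other way. It was at 23.2 in the wild type and 27.8 in the knockout, a difference of 0.27, or 1.20-fold higher. The probes at positions 469 and 1039 of the transcript differed by 0.20 and 0.33. The difference stayed above 0 under every alternative tried, between 0.20 with the brightest probe and 0.53 with the deposited value table among those planned, and at 1.05 with spike-in scaling. Its difference was above that of 80.0% of all measured genes.

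All 15 measured subunits of complex IV had differences below 0 under the reported scaling, with a median of -0.59 and 8 of them at least 1.5-fold lower, and with spike-in scaling the median was 0.19. Without the tissue-specific forms 10 subunits remained, with a median of -0.59, a range from -0.68 to -0.36 and 5 at least 1.5-fold lower. Over all measured genes 13.4% were lower by that size. Cox4i1, the regulatory subunit that binds ATP, was at 192 in the wild type and 128 in the knockout. Cox7b, a small membrane-spanning subunit, was at 92.9 in the wild type and 57.8 in the knockout, 1.61-fold lower and the greatest difference among these 10. Cox6c was at 112 in the wild type and 72.8 in the knockout. The smallest difference was that of Cox7c (-0.36), where a dim probe of -0.16 stood beside bright ones of -0.44 and -0.49.

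The muscle-type forms of complex IV differed far more than their liver-type partners. Cox8b was at 1.26 in the wild type and 0.074 in the knockout, 16.9-fold lower, and 7 of 15385 genes had a lower difference (110 of 30152 without the filter on dim probes). This dim signal depended on the background correction: the log2 difference of Cox8b was -4.08 as reported and -2.94 with normexp. Cox7a1 was at 2.65 in the wild type and 0.86 in the knockout, 3.07-fold lower. Cox6a2 was at 0.99 in the wild type and 0.39 in the knockout, 2.55-fold lower. The partners were lower by 1.51-fold for Cox8a (154 and 102), 1.37-fold for Cox7a2 (59.6 and 43.4) and 1.51-fold for Cox6a1 (465 and 307). The 3 muscle-type genes stayed below 0 under every alternative that measured them, spike-in scaling included, where Cox8b was at -3.30, Cox7a1 at -0.84 and Cox6a2 at -0.57; the stricter filter on dim probes left Cox8b out.

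Many markers of striated muscle were also lower in the knockout under the reported scaling, by very different amounts. Of 20 markers, 5 were measured on both arrays, 11 passed the background filter in the wild type alone, 0 in the knockout alone and 4 in neither. Over all 39429 gene probes, 19923 passed that filter in the wild type, 22521 in the knockout and 19470 on both arrays. Tnni2, fast skeletal troponin I, was at 2.86 in the wild type and 0.16 in the knockout, 18.2-fold lower. The rest of those measured on both arrays differed less: Pvalb by -1.35, Eno3 by -0.51, Neb by -0.42 and Atp2a1 by -0.052. Thus 2 of the 5 were at least 1.5-fold lower and 3 were not. Tnnc2, fast troponin C, was at least 88.1-fold lower, Tcap (a titin-binding protein) at least 36.5-fold, Acta1 (skeletal actin) at least 28.6-fold and Myh8 (perinatal myosin) at least 27.3-fold lower. For these bounds the wild type value was divided by the knockout probe's own value or, if higher, by the weakest signal accepted as above background there. The bounds hold for the reported scaling and background correction, and with spike-in scaling they would be smaller. The 5 markers measured on both arrays summed to 5.86 in the wild type and 2.01 in the knockout, with a median difference of -0.51 that turned to 0.27 with spike-in scaling, and Mylpf, Actn3, Ttn and Casq1 were not well above background on either.

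Cox7a1 and Cox8b are also known from brown fat, and fat markers were mixed. Of 9 brown adipocyte markers 4 were measured on both arrays, with a summed level of 12.4 in the wild type and 5.16 in the knockout. Elovl3 gave 7.94 and 4.36 of these sums, so they rest mostly on Elovl3 and Cidea. Zic1 was dim and differed by -0.19. Cidea, a lipid droplet protein, was at 4.23 in the wild type and 0.49 in the knockout, 8.67-fold lower, and Ucp1, the uncoupling protein, passed the filter in the wild type alone and was at least 3.56-fold lower. Cpt1b, by contrast, was 1.30-fold higher, Ebf2 passed the filter in the knockout alone, and Dio2, Lhx8 and Prdm16 in neither. Of 10 white adipocyte markers 5 were measured on both, with a median difference of -0.025. They summed to 141 in the wild type and 43.9 in the knockout, of which Car3, a carbonic anhydrase that liver also expresses, gave 132 and 38.6. Cfd, the complement factor adipsin, was 33.6-fold lower, whereas Lipe, Fabp4 and Pparg differed by -0.025, 0.015 and 0.40. Slc2a4 passed the filter in the wild type alone, and Adipoq, Lep, Retn and Plin1 were not above background on either array. The part of muscle or fat tissue in the values of Cox6a2, Cox7a1 and Cox8b was not tested. Left out of the subunit set, these 3 genes changed the subunits' median from -0.49 to -0.46 and the count of lower subunits from 15 to 12.

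**Figure D3:**
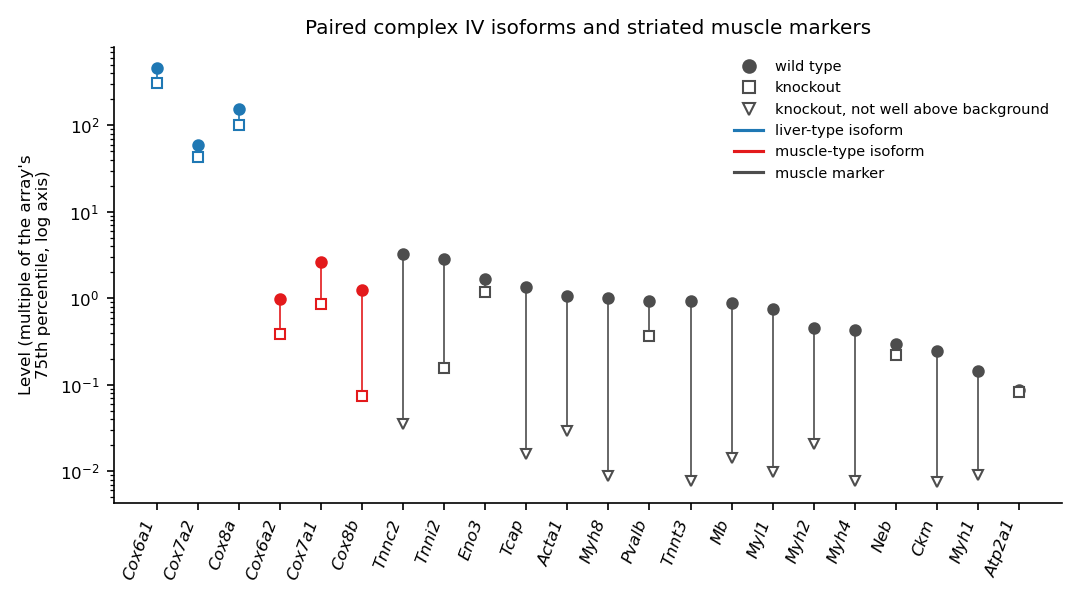
Level on the wild type array (circles) and the knockout array (squares, or triangles where the probe was not well above background) on a log axis, as multiples of each array's 75th percentile, for liver-type (blue) and muscle-type (red) complex IV genes and for striated muscle markers (grey). The lines of the muscle-type genes are longer than those of the liver-type genes, from 2.55-fold for Cox6a2 to 16.9-fold for Cox8b, and 11 muscle markers fall below background on the knockout array; levels of different genes are not comparable with each other.

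The other tissue-specific forms of complex IV gave weak signals. Cox4i2, the lung-type form of Cox4i1, was at 0.33 in the wild type and 0.24 in the knockout (-0.45). Cox6b2, a testis-type form, was at 0.32 on both arrays (-0.0073). Among 9 markers of male germ cells 7 were not above background on either array, and the 2 measured ones summed to 0.25 in the wild type and 0.16 in the knockout.

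All 15 subunits of complex V had differences below 0 under the reported scaling, with a median of -0.51, a range from -0.85 to -0.061 and 5 at least 1.5-fold lower, and with spike-in scaling the median was 0.27. The share at least 1.5-fold lower over all measured genes was 13.4%. The subunits of the catalytic head differed little. Atp5a1 and Atp5b, the α and β subunits whose interface makes ATP, were at 65.8 and 135 in the wild type and at 57.4 and 118 in the knockout (-0.20 and -0.19). Atp5c1, the γ subunit of the rotating stalk, differed by -0.21, and all 3 were above 0 with quantile normalization, loess and the deposited value table. The stalk subunits Atp5d (δ) and Atp5e (ε) differed more: Atp5e was at 159 in the wild type and 98.5 in the knockout, 1.61-fold lower.

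The membrane part and the outer stalk of complex V spanned the whole range. Atp5k, the small e subunit that joins synthase dimers, was at 78.6 in the wild type and 45.0 in the knockout, 1.75-fold lower. Its 3 probes, 2 of them on an unplaced contig, lay between -0.82 and -0.78. Atp5l, the g subunit beside it, differed by -0.51 over 6 probes that lay between -0.54 and -0.46. The 3 genes Atp5g1, Atp5g2 and Atp5g3, which encode the same mature ring subunit, differed by -0.45, -0.52 and -0.28. Atp5f1, the b subunit of the outer stalk (Atp5pb in RefSeq), was at 21.7 in the wild type and 20.8 in the knockout (-0.061). Atp5h, the d subunit of the same stalk, was at 122 in the wild type and 80.6 in the knockout, 1.51-fold lower.

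Atp5j, coupling factor 6, had the greatest difference of complex V (-0.85), but its 2 probes were far apart. The probe at position 661 was at 54.9 in the wild type and 38.4 in the knockout (-0.51). The probe at position 36, on another transcript model, was dim, with 0.15 in the wild type and 0.065 in the knockout (-1.19). By its bright probe alone Atp5j lay near the middle of complex V, and Atp5k was then the lowest.

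Assembly factors and other non-subunits differed less, with a median of -0.12 over 12 measured genes. Of these 12 genes, 9 were below 0, 2 at least 1.5-fold lower and 0 higher. Over all measured genes 60.1% were below 0 and 13.4% at least 1.5-fold lower. The non-subunits' median was above 0 with quantile normalization, loess, the deposited value table and spike-in scaling. Cox11, which delivers copper, Cox15, which makes haem a, and Cox18 and Cox19 differed by -0.068, -0.18, 0.0019 and -0.0087. Cox16 differed by -0.58, from a probe of -0.39 on its RefSeq transcript and a probe of -0.77 on another transcript model. On chromosome 12 these start at 82581919 and at 82460078. Atp5sl was at 8.68 in the wild type and 4.87 in the knockout, 1.78-fold lower. Cox10, which makes haem o, was 1.73-fold lower at a weak signal (0.24 and 0.14). Atp5s was at 0.24 in the wild type and 0.33 in the knockout (0.44), the greatest positive difference of all the genes caught by the name rule. Despite their names Atp5s and Atp5sl are listed as Dmac2l and Dmac2 in RefSeq, and Cox4nb (-0.23) as Emc8, an endoplasmic reticulum protein. Cox7a2l, which joins complexes III and IV into supercomplexes, differed by -0.17.

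Factors outside the name rule, taken from a list of 22 further assembly and regulatory genes, had a median of -0.38 over 16 measured genes, which turned to 0.40 with spike-in scaling. Of these, 1 was at least 1.5-fold lower and 0 higher, against 13.4% and 8.42% of all measured genes. That gene was Uqcc2, needed for cytochrome b synthesis, with 14.7 in the wild type and 8.43 in the knockout. Among 14 measured regulators of respiratory genes the median was 0.026, between -0.078 and 0.082 under the alternatives other than spike-in scaling, and none reached 1.5-fold under the reported scaling. The nuclear receptor Esrra differed by -0.47, Nrf1, the factor whose core motif is marked above, by -0.35, and Tfb1m, a mitochondrial rRNA methyltransferase, by 0.32.

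The subunits that mitochondrial DNA encodes were close to the nuclear ones in their differences. The 5 measured genes of complexes III to V had a median of -0.59 under the reported scaling, with CYTB (cytochrome b) at -0.74, COX2 at -0.60, COX3 at -0.59, COX1 at -0.56 and ATP6 at -0.55. COX1, the subunit where oxygen is reduced, was at 549 in the wild type and 373 in the knockout. CYTB was at 455 in the wild type and 273 in the knockout. The 5 genes ranged from 1.46-fold to 1.67-fold lower. Of all measured genes 13.4% were at least 1.5-fold lower, and of these 5 genes 3 were. Their median was -0.11 with quantile normalization and turned to 0.19 with spike-in scaling.

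Other mitochondrial genes place the subunits in context. The counts that follow stand beside 13.4% of all measured genes at least 1.5-fold lower. The 39 measured nuclear subunits of complex I had a median of -0.50, close to that of complexes II to V, with all 39 below 0 and 9 at least 1.5-fold lower. The 78 mitochondrial ribosomal proteins had a median of -0.28 with 6 at least 1.5-fold lower, and 77 cytosolic ribosomal proteins a median of -0.20 with 1 (the median was 0.090 with quantile normalization). The 17 genes of the TCA cycle and pyruvate dehydrogenase had a median of 0.11 with none at 1.5-fold in either direction, from Dlat at -0.28 to Dld at 0.42. With quantile normalization the medians were -0.24 for complex I, -0.11 for mitochondrial ribosomal proteins and 0.28 for the TCA cycle, beside -0.18 for the subunits. With spike-in scaling they were 0.28, 0.50 and 0.89, beside 0.29 for the subunits, so every sign was positive. That scaling moves every gene by the same amount and so cannot change the order of the lists.

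Within the set the difference went with where the probes lie on the transcript. For the 39 subunit genes without tissue-specific forms, the difference and the position of the furthest measured probe from the 5′ end, on a log2 scale, had a Pearson r of 0.63 and a Spearman rho of 0.76. These values are across genes that share both arrays, their scaling and their labelling, and are a description. The same values over 14410 measured genes were 0.10 and 0.14. The 25 subunits with the furthest probe within 700 bases had a median of -0.58 and ranged from -0.85 to -0.28, with 12 at least 1.5-fold lower. The 14 subunits with a probe further along had a median of -0.21 and ranged from -0.45 to 0.27, with 0 at least 1.5-fold lower. Over all genes the medians on either side of 700 bases were -0.24 (2377 genes) and -0.068 (12033 genes). Of all measured genes 13.4% were at least 1.5-fold lower, and this share was not computed for each side of 700 bases. The counts rest on the reported scaling: with quantile normalization or loess Atp5j alone of the 39 was at least 1.5-fold lower.

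The genes with near probes include the small accessory subunits, and those with far probes include the large catalytic and core subunits Sdha, Atp5a1, Atp5b, Uqcrc1 and Uqcrc2, so transcript length and role in the complex overlap. Among genes of short position Atp5g3 had the smallest difference (-0.28), and among genes of long position Atp5g1 had the greatest (-0.45). The Atp5g1 probe at position 537 differed by -0.57 and that at position 4504 by -0.34. These positions are on different transcript models, and Atp5g1 is of long position only through the second. Of the other subunit genes with probes on both sides of 700 bases, Cycs differed by 0.20 at position 469 and 0.33 at position 1039, and Sdhb went the other way, with -0.23 at position 590 and -0.48 at position 1017. Both probes of Sdhc lay beyond 700 bases and differed by -0.17 at position 868 and -0.25 at position 1059. Spearman's rho between the difference and the mean level was -0.43 for the same 39 subunits and -0.14 over all genes. With quantile normalization the medians of the 2 sets were -0.25 and 0.067, and with loess -0.23 and 0.065. The near-probe set thus lay below the far-probe set in both. Spike-in scaling gave 0.20 and 0.57, but it moves every gene by the same amount and cannot change that order. RNA length, RNA quality and labelling were not measured apart from this, and their part in the pattern was not tested.

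**Figure D4:**
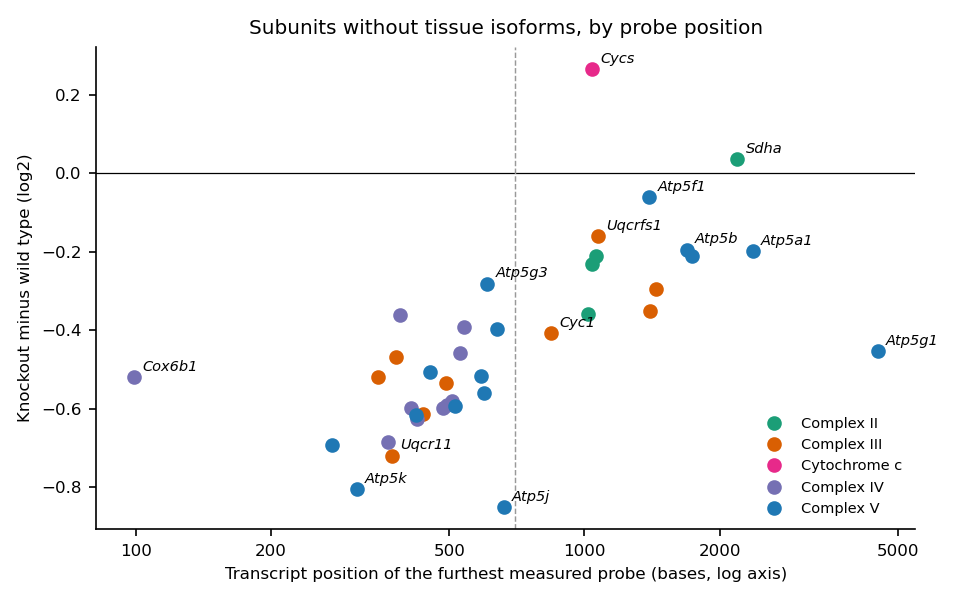
Difference (vertical axis, log2 knockout minus wild type) against the position of the furthest measured probe on the transcript (horizontal axis, bases from the 5′ end, log axis) for 39 subunit genes without tissue-specific forms, coloured by complex. Genes left of the dashed line at 700 bases lie between -0.85 and -0.28 and those right of it between -0.45 and 0.27; with spike-in scaling all points move up by 0.78.

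The scaling of the arrays set the sign of most of these differences. The 7 E1A spike-in probes (224 spots) had a median difference of -0.78 on the reported scale, between -0.89 and -0.74, and scaling to them moved the median of all genes to 0.67. On every scale tried the subunits' median lay below that of all genes. The subunits' median minus the median of all genes was -0.38 with the reported and the spike-in scaling, -0.15 with quantile normalization and -0.18 with loess. Spike-in scaling and centring on the median of measured probes move all genes alike, so neither can change this gap.

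**Figure D5:**
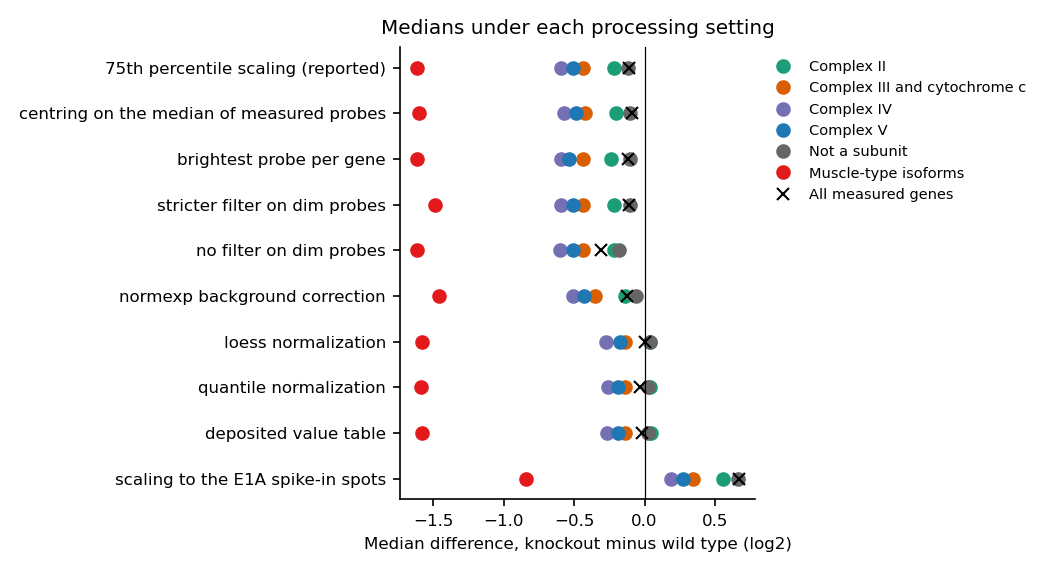
Median difference (horizontal axis, log2 knockout minus wild type) of each complex, of the non-subunits, of the muscle-type isoforms and of all measured genes (cross) under the reported scaling and 9 alternatives (rows). Complexes III, IV and V lie left of the cross in every row, complex II and the non-subunits lie above 0 with loess, quantile normalization and the deposited value table, and with spike-in scaling only the muscle-type isoforms stay below 0. The centring and spike-in rows are the reported row with all marks moved by the same amount.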

How the data were processed

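Liver RNA of 1 wild type and 1 knockout mouse sample was labelled with Cy3 and hybridised to Agilent arrays on 1 slide, per the labels' protocols and file headers. The deposited values are spot intensities from Agilent Feature Extraction, background-subtracted and detrended within each array per the file headers (version 9.5.1.1 in the submitters' processing notes, 10.7.1.1 in the headers). The authors' deposited table of values is also in linear intensity, with a median of 45.9 in both columns, and it served as an alternative. Its sorted columns differed by at most 0.042%, as after quantile normalization, so it largely repeats that alternative.

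Of 44397 spots per array, 1377 controls were left out, as were outlier spots (183 in the wild type and 190 in the knockout, 0 on the genes described). 0 spots were saturated. Signals were divided by the array's 75th percentile and log2-transformed, and a probe counted as measured where at least 50% of its spots were marked well above background. Genes were named through RefSeq (GRCm38.p6), with 26674 probes matched on accession, 4444 on a symbol or synonym and 8215 left under the file's name. Probe positions are in mm9. Transcript positions are those in the array files.

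With 1 array per group there was no test and no p-value. The number of arrays limits the precision. Each gene caught by the name rule could be named. From other lists up to 5 measured genes with the greatest absolute difference were named, plus Dnm1l and Fgf21; markers above background on 1 array alone or on neither were added to show the whole list. The genes and lists were chosen with earlier results of these data known. The motifs, the 700-base split, the promoters shown, the spike-in scaling and the exclusion of the muscle-type genes were chosen after the data were seen. Other cell types' markers had medians of 0.46 (12 macrophage genes), 0.82 (12 stellate cell genes), 0.21 (9 endothelial genes), 0.40 (8 lymphocyte genes) and 1.13 (6 bile duct genes). Calculations used Python 3.11.15, pandas 2.3.3, numpy 2.4.6, R 4.3.3 and limma 3.58.1 (normexp with an offset of 50, quantile and loess with a span of 0.3), and the scripts were tested on simulated data.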

Additional observations from a re-analysis of the deposited data

How the results depend on the processing

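The scaling between the arrays decided most signs. With quantile normalization, loess and the deposited value table the median of all subunits was -0.18, -0.18 and -0.19, of complex III with cytochrome c -0.14 in each, of complex IV -0.26, -0.27 and -0.26, and of complex V -0.19, -0.17 and -0.19. Complex II (0.037, 0.041 and 0.045) and the non-subunits (0.024, 0.036 and 0.022) turned positive, and 4 subunits were at least 1.5-fold lower under each, against 15 with the reported scaling. The normexp background correction gave 8 such subunits and a median of -1.46 for the muscle-type isoforms. Scaling to the spike-in spots, added after seeing the data, gave 0.29 for all subunits, 0.56 for complex II, 0.34 for complex III with cytochrome c, 0.19 for complex IV, 0.27 for complex V, 0.66 for the non-subunits and -0.84 for the muscle-type isoforms, with 2 subunits at least 1.5-fold lower and 5 higher. It took the subunits below 0 from 42 to 5. Among subunits at least 1.5-fold lower with the reported scaling, the signs that turned were those of Atp5e (0.087), Atp5h (0.19), Atp5j2 (0.16), Cox4i1 (0.19), Cox6a1 (0.18), Cox6c (0.15), Cox7b (0.095), Cox8a (0.18), Uqcr11 (0.060) and Uqcrq (0.17). Which scale is right was not tested. Centring on the median of measured probes, the stricter filter and the brightest probe per gene gave 11, 13 and 14 lower subunits, and no filter gave 17. No paired analysis was possible because each group has 1 array. Signal over background limits Cox17, Cox7b2 and Cox8c, which have no value, and leaves Cox8b out under the stricter filter.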
